A study of Mus musculus with 22 samples.

Results

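Fc receptors and their adaptor partners were followed as a set of 7 genes, taken by name from the 23091 genes in the tables. The set was chosen with earlier results of these data known. The set holds 2 adaptors, Fcer1g and Tyrobp, and 5 receptors, Fcgr2b, Fcgr3, Fcgr4, Tarm1 and Trem1. The cells came from the terminal ileum of mice on day 21 after an allogeneic haematopoietic cell transplant and had been sorted on donor haplotype and neutrophil surface proteins (CD45+H2kb+CD11b+Ly6G+). Single-cell RNA was measured by CEL-Seq2, a plate method that tags each transcript once near its 3′ end, so levels of different genes were compared without dividing by length. Levels were described for each of 22 libraries, 10 control and 12 with acute graft-versus-host disease (aGVHD), and for cell classes within them.

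In both groups BALB/c recipients aged 7 to 9 weeks received a lethal irradiation of 2 doses of 5 Gy on the day of transplant. Both groups then received 5000000 bone marrow cells from C57BL/6 donors, which were female mice aged 7 to 10 weeks. The aGVHD group also received 400000 donor T cells, and the control group received none. The labels therefore tie the disease to the donor T cells, and the 2 cannot be told apart here. Library titles fall into a dated set (6 control and 8 aGVHD libraries) and a set with G1 in the title (4 and 4). Which mouse a library came from is not labelled, so the p-values below measure the spread between libraries, which may be partly technical.

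Immune cells of the myeloid line read antibody and other ligands through receptors whose short tails often carry no signal of their own. These receptors pair in the membrane with small adaptors, the FcR gamma chain encoded by Fcer1g or DAP12 encoded by Tyrobp, whose tails hold an immunoreceptor tyrosine-based activation motif (ITAM) that recruits Src-family and Syk kinases once its tyrosines are phosphorylated. The activating IgG receptors encoded by Fcgr3 and Fcgr4 and the receptor encoded by Tarm1 pair with the FcR gamma chain, TREM-1 pairs with DAP12, and the IgG receptor encoded by Fcgr2b instead carries an inhibitory motif (ITIM) in its own tail.

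That division can be read in the reference coding sequences of GENCODE M21 (GRCm38), 1 principal transcript a gene. The search took an ITAM as a tyrosine, any 2 residues and a leucine or isoleucine, repeated after a gap of 6 to 8 residues. It matched once in each adaptor and in 0 of the 5 receptors. An ITIM was taken as valine, isoleucine, leucine or serine, any residue, a tyrosine, any 2 residues and a leucine or valine. The Fcgr2b match lies at residues 317 to 322 of 340. This shorter pattern also occurs by its letters once each in Fcer1g, Tyrobp, Fcgr4 and Tarm1, and a match of letters is not a site. The 2 ITAM coding stretches and the Fcgr2b ITIM coding stretch are shown because they set the adaptors apart from the receptors, with the codons of the motif tyrosines in capitals.
Fcer1g ITAM: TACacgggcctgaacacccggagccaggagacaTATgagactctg
Tyrobp ITAM: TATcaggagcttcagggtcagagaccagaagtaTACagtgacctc
Fcgr2b ITIM: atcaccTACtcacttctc

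The Fcgr2b, Fcgr4 and Fcgr3 genes lie side by side in that annotation, on chromosome 1 with Fcer1g. Tyrobp and Tarm1 are on chromosome 7 and Trem1 is on chromosome 17. In the last 500 bases of their protein-coding transcripts, the longest run of identical bases between any 2 members was 15, so no long shared 3′ stretch was found. Fcgr2b overlaps an antisense gene (Gm38204) and Trem1 a pseudogene on the other strand. On the same strand, Fcgr3 overlaps a microRNA gene (Mir6546), Fcgr4 a small nuclear RNA gene (Gm26110) and Tarm1 a gene model (Gm44165). Counting by strand would not separate these. Whether the deposited counting used strand is not stated in the labels.

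A barcode was kept as a cell at 500 or more transcripts, which left 1383 of 4224 barcodes, 358 control and 1025 aGVHD. A control library held 11 to 60 cells and 29334 to 223216 transcripts, and an aGVHD library held 74 to 95 cells and 192625 to 347985 transcripts. Control replicates 5, 9 and 10 stand apart with 11 or 12 cells each. On average 51.8% of a library's transcripts belonged to unnamed gene models (31.9% to 78.1%). Of the neutrophil markers, S100a8 was found in 67.7% and Csf3r, the G-CSF receptor, in 71.6% of kept cells, while transcripts of Ly6g, the sorted protein's gene, were found in 5.71%. Clusters made without the members gave 536 neutrophil-like cells and far smaller classes of 60 B or plasma cell-like, 28 epithelial-like, 63 macrophage/monocyte-like and 29 dendritic-like cells, and 667 cells stayed unnamed. The macrophage/monocyte-like cluster also had 6 raised T or NK cell markers.

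Over all gated cells both adaptors, Fcgr3 and Tarm1 were higher in aGVHD, Fcgr4 and Trem1 did not pass the test, and the inhibitory receptor Fcgr2b was at nearly the same level in both groups. The test was limma with voom weights on the transcripts of each library summed over its cells, with the title set as a covariate and Benjamini-Hochberg adjustment over all genes tested. Of 2382 genes tested, 125 passed an adjusted p of 0.05 (5.25%), and 61 of these were higher in aGVHD (2.56%). With named genes alone, 81 of the 121 genes called were higher. Among the members 4 of 7 passed, all higher, against that background, and the median log2 difference was 0.76 over the members and -0.01 over all genes tested. Because the members were chosen with earlier results of these data known, neither contrast is an independent test of the set. Below, CPM means a library's transcripts per 1000000 after scaling by trimmed means of M values (TMM). In such sums, fewer cells of a type and less RNA per cell cannot be told apart.

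Fcer1g, the FcR gamma chain, had 222 CPM in the lowest control library, 353 at the median and 637 in the highest. In aGVHD the lowest library had 533 CPM, the median was 761 and the highest had 1003. The groups overlapped only at 1 control library: 9 of 10 control libraries lay below every aGVHD library, and 10 of 12 aGVHD libraries lay above every control. The log2 difference was 0.89 (SE 0.16) with an adjusted p of 0.00693 by limma, from means of 380.1 ± 138 CPM (SD, n = 10) and 735 ± 130.4 CPM (SD, n = 12). The direction was the same in both title sets, with means of 410.2 against 783 CPM in the dated set and 335 against 639 CPM in the G1 set.

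Tyrobp, which encodes DAP12, ran from 262 to 776 CPM in control libraries with a median of 506. In aGVHD it ran from 597 to 930.0 CPM with a median of 767. The groups overlapped more than for Fcer1g, since 5 of 12 aGVHD libraries lay above every control and 7 of 10 control libraries lay below every aGVHD library. The difference was 0.58 (SE 0.16, adjusted p = 0.0368, limma). Title set means were 497 against 770.2 CPM (dated) and 554 against 735 CPM (G1).

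Fcgr3, the activating low-affinity IgG receptor, was at 27.7 CPM in the lowest, 151 at the median and 450.4 in the highest control library. In aGVHD it ran from 185 to 417 CPM with a median of 247. The highest library of all was control replicate 9, which holds 12 cells, so 0 of 12 aGVHD libraries exceeded every control, although all 12 exceeded the control mean. The difference was 0.78 (SE 0.22, adjusted p = 0.0435, limma).

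Fcgr4, the second activating IgG receptor of the set, ran from 0 to 200.2 CPM in control libraries (median 83.8) and from 67.4 to 319 CPM in aGVHD (median 158). It was at 0 in 1 control library, replicate 5, and 11 of 12 aGVHD libraries lay above the control mean. The difference of 0.75 (SE 0.29, 95% interval 0.15 to 1.35) did not pass (adjusted p = 0.127, limma).

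Fcgr2b, the inhibitory IgG receptor, ran from 27.7 to 275 CPM in control libraries (median 104) and from 49.6 to 237 CPM in aGVHD (median 88.8). Values of the 2 groups lay over each other, and 5 of 12 aGVHD libraries were above the control mean. The difference was -0.04 (SE 0.30, 95% interval -0.66 to 0.58, adjusted p = 0.961, limma), an interval that holds changes of either sign, and its sign turned in several alternative settings. The interval does not show that the 2 groups were equal.

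Tarm1, a receptor of myeloid cells encoded beside Oscar, was the scarcest member and had the largest log2 difference of the 7. It had 54 transcripts in all control cells and 377 in all aGVHD cells. Control libraries ran from 0 to 98.0 CPM (median 28.8) and aGVHD libraries from 45.5 to 166 CPM (median 99.05). It was at 0 in 3 control libraries and in 0 aGVHD libraries, and 8 of 10 control libraries lay below every aGVHD library. The difference was 1.96 (SE 0.46, 95% interval 1.03 to 2.90, adjusted p = 0.0185, limma). Since 3 control libraries are at 0, its size depends on the small value that voom adds before taking logs.

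Trem1, an amplifier of neutrophil and monocyte inflammation, ran from 151 to 469.7 CPM in control libraries (median 275) and from 171 to 955 CPM in aGVHD (median 514). Its SD in aGVHD, 219 CPM, was the largest of the 7, with 7 of 12 libraries above every control and 1, replicate 10, near the bottom of the control range. The difference of 0.76 (SE 0.25) did not pass (adjusted p = 0.0709, limma). It passed without aGVHD replicate 10, at 0.94 (adjusted p = 0.0164, limma). In 21 of the 22 fits with 1 library left out it did not pass, with differences down to 0.62 and adjusted p-values up to 0.174 (limma).

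**Figure D1:**
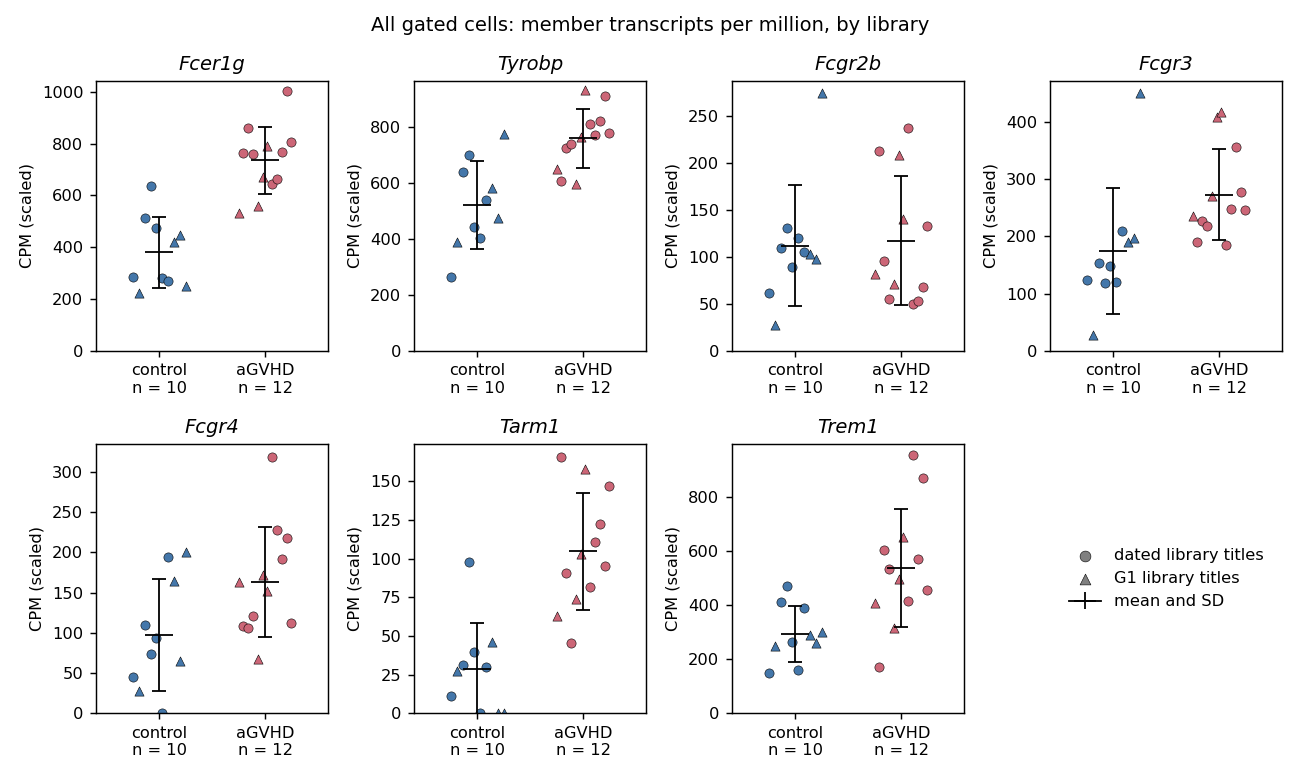
Each point is 1 library's level of a member over all gated cells, in scaled CPM on a linear axis that starts at 0, with circles for dated and triangles for G1 titles. Bars give the mean and SD of 10 control and 12 aGVHD libraries (the Tarm1 control bar is clipped at 0). Fcer1g separates the groups best, with 10 of 12 aGVHD libraries above every control, and Fcgr2b values lie over each other.

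How firmly the 4 calls stand differed by gene. With 1 library left out in turn, Fcer1g passed in 22 of 22 fits and Tarm1 in 21, with an adjusted p of 0.0521 for Tarm1 without control replicate 1. Tyrobp lost its call in 13 and Fcgr3 in 10 of these 22 fits, with adjusted p-values up to 0.0814 for both (limma). All 4 calls ended with library totals left unscaled (0 genes called in all), in either title set alone, with the 18 libraries of at least 20 cells, and without 96 cells left out for their total or their Kcnq1ot1 share. Unscaled, the differences were 0.97 (Fcer1g), 0.62 (Tyrobp), 0.86 (Fcgr3) and 1.94 (Tarm1). Without the 96 cells they were 0.60, 0.28, 0.60 and 1.69. After thinning each cell to 500 transcripts, where Tarm1 could not be tested, the differences were 0.65 for Fcer1g, 0.16 for Tyrobp and 0.45 for Fcgr3, and none of the 3 passed. Without control replicates 5, 9 and 10, left out after seeing the data, Fcer1g passed (adjusted p = 0.0434, limma), whereas Tyrobp (0.0957), Fcgr3 (0.0511) and Tarm1 (adjusted p = 0.0857, limma) did not. All 4 also missed the threshold in the 12 libraries that share title numbers, with or without a replicate block. Directions of the 4 stayed the same in each of these fits. The test of a different group effect in the 2 title sets gave 0 calls among 2382 genes (123 at an unadjusted p under 0.05), with the genes tested there aligned to the main comparison after group results had been seen. For Tarm1 the G1 difference exceeded the dated one by 2.06 (SE 0.995, unadjusted p = 0.0490, adjusted p = 0.853, limma), a size like that of its group difference, and the other members had adjusted p-values of 0.943 or more.

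Other transcripts moved with the same libraries. The 22 neutrophil markers, all with transcripts, summed to 8082 to 14850.5 CPM in control libraries (median 10110.4) and to 12534 to 45025 CPM in aGVHD (median 17659). Of the 17 tested, 6 passed and all 6 were higher, and their median log2 difference was 0.69, close to the 0.76 of the members. Macrophage/monocyte markers summed to a median of 1342 CPM (249 to 5305) in control and 1246 CPM (531 to 4644) in aGVHD libraries, and 0 of 10 tested passed. Dendritic markers passed as lower in 3 of 4 tested, B or plasma cell markers in 1 of 2 and epithelial markers in 1 of 9. In each of these lists 0 tested markers had a positive difference, and the medians were -1.32, -2.43 and -1.65. Mast cell or basophil markers were near 0, with Fcer1a and 6 others of the 10 at 0 in every library.

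Class shares were not tested, and their differences lay within or near the spread between libraries. Of a library's cells, 34.8% ± 9.08 (SD, n = 10) were neutrophil-like in the control group, against 40.1% ± 14.1 (SD, n = 12) in aGVHD. The B or plasma cell-like share was 10.99% ± 11.7 (SD, n = 10) against 2.98% ± 7.07 (SD, n = 12), and the epithelial-like share was 3.93% ± 5.69 (SD, n = 10) against 1.03% ± 1.93 (SD, n = 12). Epithelial-like cells were deep, at a median of 13536.5 transcripts, against 2257 in neutrophil-like cells, so they weigh more in a sum. Without the 6 clusters that carry markers of another class, a choice made after seeing the data, the same fit called 0 of 1332 genes, with 169 at an unadjusted p under 0.05. Fcer1g then differed by 0.55 (adjusted p = 0.211), Tyrobp by 0.29 (0.488), Fcgr3 by 0.57 (0.277) and Tarm1 by 1.29 (adjusted p = 0.211, limma).

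Within neutrophil-like cells no member passed the test. Libraries with at least 10 such cells entered, 6 control and 12 aGVHD, and 2 of 951 genes passed (0.21%), both lower in aGVHD, with 97 at an unadjusted p under 0.05. Cluster 9 among these cells, whose leading genes include the granule genes Ngp, Camp and Ltf, held 4 control and 86 aGVHD cells. Cluster 3 held 42 and 83. Both groups were thus present in every neutrophil-like cluster, in unlike proportions. Fcgr2b had too few transcripts to be tested there.

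The adaptors were closer between groups in these cells than over all gated cells. Fcer1g ran from 714 to 1246 CPM in control (median 893) and from 787 to 1311 CPM in aGVHD (median 1003), with a difference of 0.16 (SE 0.15, 95% interval -0.16 to 0.47, adjusted p = 0.701, limma). Tyrobp ran from 698 to 1576 CPM (median 1034) and from 1004 to 1376 CPM (median 1294), a difference of 0.30 (SE 0.16, 95% interval -0.02 to 0.63, adjusted p = 0.490, limma). The interval for Fcer1g lies below its all-gated value of 0.89. These fits share cells, and the change between them was not tested.

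Among the receptors, Tarm1 again had the largest difference in neutrophil-like cells, 1.4995 (SE 0.75, 95% interval -0.06 to 3.06, adjusted p = 0.483, limma). It was at 0 in 2 of 6 control and 1 of 12 aGVHD libraries, and 9 of 12 aGVHD libraries lay above every control, on 22 control and 244 aGVHD transcripts. Without control replicate 8, 1 of the 2 control libraries at 0, its difference was 0.79. The other receptors differed by 0.30 (Fcgr3, SE 0.23), 0.40 (Fcgr4, SE 0.33) and 0.35 (Trem1, SE 0.29), with adjusted p-values of 0.639, 0.658 and 0.656 (limma). Trem1 spread widely in aGVHD, from 369 to 1626 CPM, against 525 to 1232 CPM in control libraries. Without the granule gene cluster the differences were 0.12 for Fcer1g, 0.21 for Tyrobp and 1.20 for Tarm1, and 1 gene passed.

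**Figure D2:**
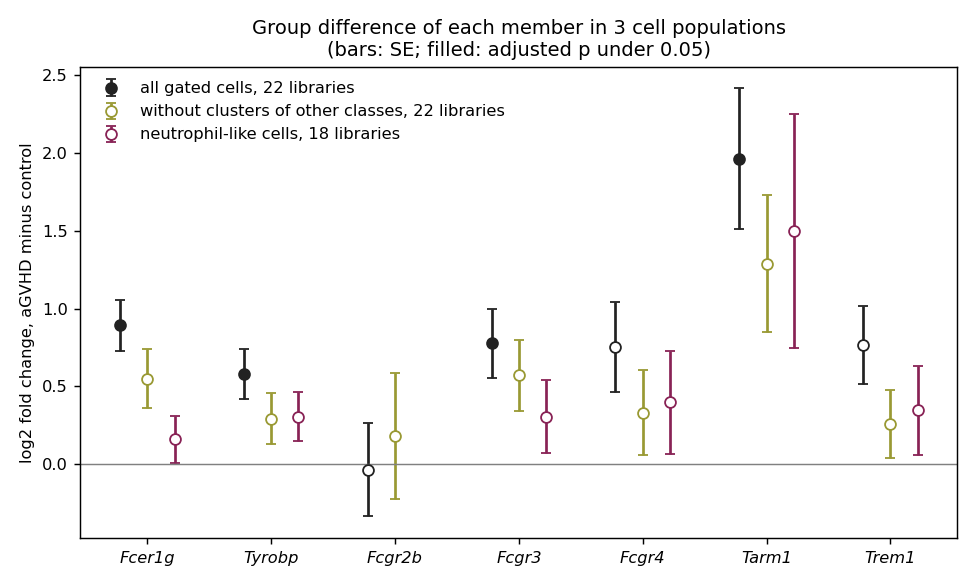
The log2 fold change (aGVHD minus control) of each member is plotted with its SE for all gated cells, for those cells without the 6 clusters of other classes, and for neutrophil-like cells (Fcgr2b was not tested there). Filled points pass an adjusted p of 0.05: Fcer1g, Tyrobp, Fcgr3 and Tarm1 do so over all gated cells, and no member does in the other populations.

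**Figure D3:**
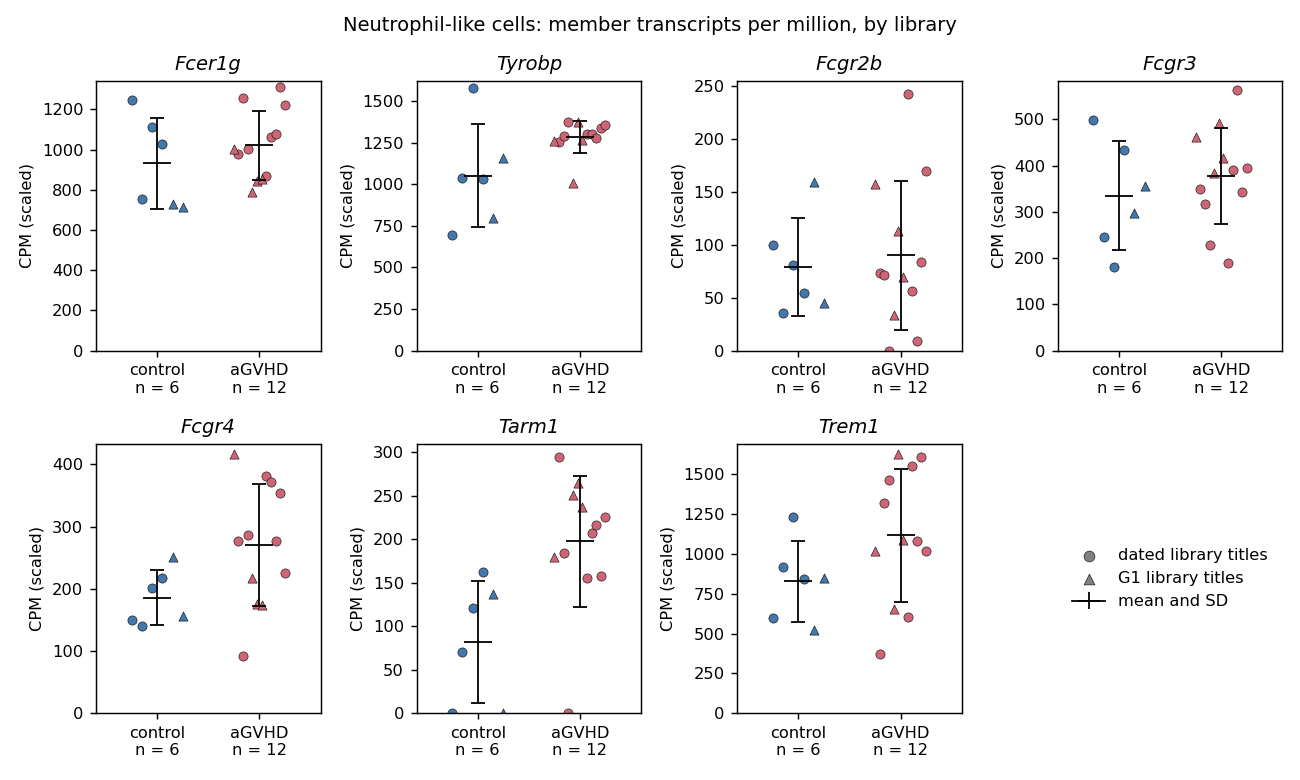
Each point is 1 library's level of a member summed over its neutrophil-like cells, in scaled CPM from 0, for 6 control and 12 aGVHD libraries, with bars for the mean and SD. Control and aGVHD values overlap for every member, and Fcer1g means are 931 and 1022 CPM.

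Receptor transcripts had another make-up in each class. Levels by class are given per 1000000 transcripts of named genes, pooled over libraries, as a description with no test, since the same cells made the clusters. Tyrobp was at 2223, Trem1 at 1986 and Fcer1g at 1765 in neutrophil-like cells, followed by Fcgr3 at 696, Fcgr4 at 451, Tarm1 at 325 and Fcgr2b at 137. Exact 95% Poisson intervals of neighbours in this order do not overlap, from Trem1 (1891 to 2084) and Fcer1g (1675 to 1858) down to Tarm1 (287 to 366) and Fcgr2b (113 to 165). These intervals cover counting error only, and 412 of the 536 cells are aGVHD cells. The order was not the same in every library: Fcer1g exceeded Trem1 in 7 of 18 libraries, and the mean of the control libraries was 931 CPM for Fcer1g and 826 CPM for Trem1.

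Macrophage/monocyte-like cells had another order, with Fcer1g at 1214, Tyrobp at 967, Fcgr3 at 885, Fcgr2b at 532, Fcgr4 at 350, Trem1 at 161 and Tarm1 at 64.3. The inhibitory receptor was thus 26.7% of the 5 receptors' transcripts in these cells and 3.81% in neutrophil-like cells, whereas Trem1 was 8.06% and 55.2%. The same contrast held within libraries. In the 11 libraries with at least 3 cells of each class, Fcgr2b was higher in the macrophage/monocyte-like cells in 10, with medians of 577 and 142 per 1000000. Trem1 was higher there in 0 of 11 libraries (128 against 1497) and Tyrobp in 1 of 11 (898 against 2057). Fcgr3 was higher in the macrophage/monocyte-like cells in 8 of 11, Fcgr4 and Fcer1g in 4 of 11 and Tarm1 in 1 of 11.

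Dendritic-like cells had Fcer1g at 676, Tyrobp at 772 and Fcgr2b at 241 per 1000000. B or plasma cell-like cells had Fcer1g at 1006, Trem1 at 588 and Tarm1 at 56.9. Epithelial-like cells, which should lack these genes, were lowest among the classes for 6 of the 7 members, with Fcer1g at 249 and Tyrobp at 273, and Tarm1 was lower still in dendritic-like cells at 16.1. Barcode positions taken as unused gave a further set of low values. They are the first or the last 96 positions of a library, whichever held fewer kept cells. These 2112 barcodes, of which 2 had passed the limit of 500 transcripts and were kept as cells, had a median of 81 transcripts and held 1.42% to 15.99% of a library's transcripts, with Fcer1g at 605, Tyrobp at 421, Trem1 at 352 and Fcgr2b at 26.3 per 1000000. The epithelial-like levels of all members but Fcgr2b and Tarm1 lie below those values. Per cell, these deeper cells held 2.29 Fcer1g, 2.5 Tyrobp, 1.32 Trem1 and 0.46 Fcgr2b transcripts. Neutrophil-like cells held 2.71, 3.42, 3.05 and 0.21.

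Levels also varied among the 5 neutrophil-like clusters. Trem1 went from 1275 in cluster 3, whose leading genes include Il1b and Il1bos, to 2599 in the granule cluster 9. Tarm1 went from 226 in cluster 8 to 418 in cluster 9, while Fcgr2b was 188 in cluster 3 and 91.5 in cluster 10. Fcer1g peaked among them in cluster 1 at 2157. Cluster 7, which had raised neutrophil markers but stayed unnamed because Siglecf led it, had Fcer1g at 2451 and Tyrobp at 2482, the highest of all 16 clusters.

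**Figure D4:**
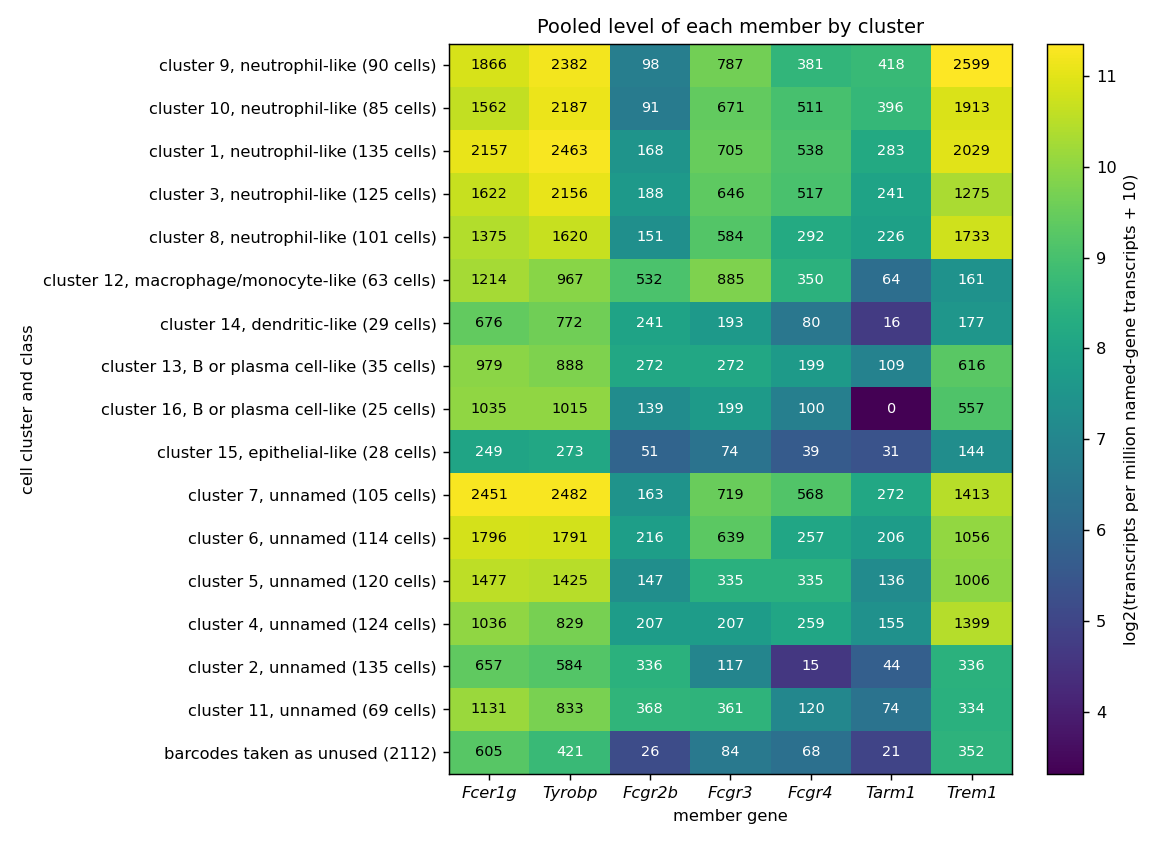
Each cell gives a member's pooled level in a cluster, in transcripts per 1000000 named-gene transcripts, with colour on a log2 scale (level + 10). Rows are 16 clusters with their class and cell number and, last, the barcodes taken as unused. Trem1 is 2599 in cluster 9 and 161 in the macrophage/monocyte-like cluster 12, and Fcgr2b is 98.4 and 532.

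Adaptor transcripts outnumbered those of the set's receptors in 19 of 22 libraries over all gated cells and in 16 of 18 over neutrophil-like cells. Their ratio does not depend on library scaling. It counts Fcgr2b and leaves out the other activating receptors listed below, so it shows no excess of adaptors over all their receptors. Over all gated cells those others summed to medians of 1856 (control) and 2611 CPM (aGVHD). Fcer1g medians were 353 and 761 CPM, and Tyrobp medians 506 and 767 CPM. In neutrophil-like cells the others summed to 4350 and 4387 CPM, against 893 and 1003 (Fcer1g) and 1034 and 1294 (Tyrobp). Over all gated cells control libraries held 1.36 ± 0.30 adaptor transcripts per receptor transcript (SD, n = 10) and aGVHD libraries 1.29 ± 0.21 (SD, n = 12), with ranges of 0.84 to 1.70 and 0.90 to 1.61 that lie over each other. In neutrophil-like cells the control ratio was 1.31 ± 0.14 (SD, n = 6) and the aGVHD ratio 1.16 ± 0.22 (SD, n = 12). No p is given for a ratio over chosen members. The receptor make-up over all gated cells differed mostly in the scarce members: Fcgr2b made up 15.8% ± 6.23 of receptor transcripts in the control libraries against 10.4% ± 6.59 in aGVHD (SD), and Tarm1 was 4.07% ± 3.67 and 9.06% ± 4.03, whereas Trem1 was 43.7% ± 11.8 and 43.8% ± 11.3. Fcer1g per Tyrobp transcript was 0.76 ± 0.25 in control and 0.97 ± 0.15 in aGVHD over all gated cells, and 0.96 ± 0.43 and 0.80 ± 0.12 in neutrophil-like cells. The last control mean includes replicate 1 at 1.79, from 11 cells, and the medians in neutrophil-like cells were 0.82 and 0.79.

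**Figure D5:**
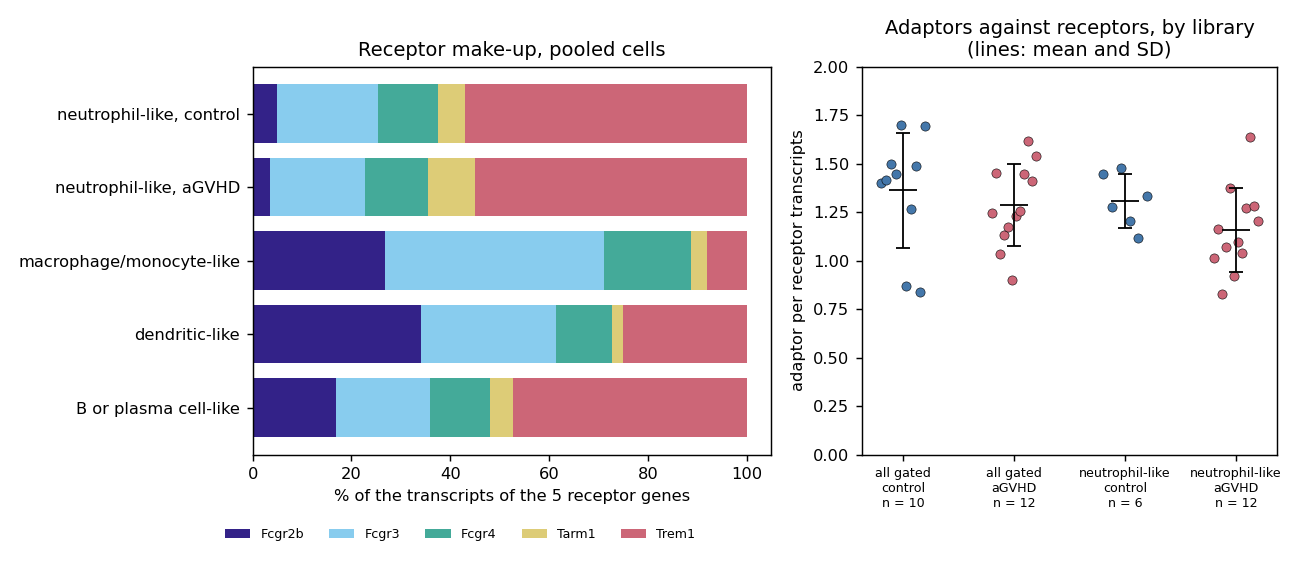
Left, bars show the share (%) of each receptor gene among the transcripts of the 5 receptor genes in pooled cells of a class; Trem1 fills 57.1% of the control and 54.9% of the aGVHD bar for neutrophil-like cells, and 8.06% for the macrophage/monocyte-like class. Right, each point is the adaptor transcripts per receptor transcript of 1 library, with lines for the mean and SD; the groups overlap in both populations.

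Shares of cells with a transcript were compared after thinning each cell to 500 transcripts. In neutrophil-like cells 48.3% had Tyrobp (exact binomial 95% interval 44.02 to 52.6), 40.5% Fcer1g (36.3 to 44.8), 35.3% Trem1, 19.6% Fcgr3, 13.1% Fcgr4, 8.02% Tarm1 and 3.54% Fcgr2b (2.15 to 5.48). Without thinning these shares were 86.8%, 79.7%, 75.4%, 51.7%, 39.9%, 29.5% and 16.6%. In 28 epithelial-like cells, the background class, the thinned share was 10.7% for Fcer1g (2.27 to 28.2) and 7.14% for Tyrobp, and 0% for Fcgr2b, Fcgr3 and Tarm1, where 0 of 28 cells allows up to 12.3%. These cells were deeper, at a median of 13536.5 transcripts against 2257 in neutrophil-like cells, so thinning removed more of theirs. Unthinned, 75% had Fcer1g, 64.3% Tyrobp, 39.3% Fcgr2b, 39.3% Trem1, 32.1% Fcgr3, 25% Fcgr4 and 25% Tarm1. Of these shares only that of Fcgr2b exceeded its neutrophil-like one. By thinned shares, Fcgr2b, Tarm1 and Fcgr4 (3.57% in epithelial-like cells, interval up to 18.3) are not above what these few background cells allow. The pooled levels of all 3 were higher, with Tarm1 at 325 per 1000000 (287 to 366) against 31.2 (13.5 to 61.4) in epithelial-like cells and 21.0 in the barcodes taken as unused. By library, thinned Fcer1g shares in neutrophil-like cells averaged 32.4% ± 12.9 in 6 control libraries and 43.9% ± 9.71 in 12 aGVHD libraries (SD), and Tyrobp shares were 42.3% ± 18.8 and 50.05% ± 10.9, differences within or near the spread between libraries.

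Of 307 thinned neutrophil-like cells with a transcript of any of the 5 receptors, 73.6% (68.3 to 78.5) also had an adaptor transcript, against 53.7% (47.0 to 60.3) of the 229 cells without. For single receptors the shares with and without were 74.6% and 59.9% for Trem1, 73.3% and 63.1% for Fcgr3, 71.4% and 64.2% for Fcgr4, and 74.4% and 64.3% for Tarm1. Fcgr2b went the other way, at 57.9% (33.5 to 79.7) of the 19 cells with it and 65.4% of those without. For all single receptors but Trem1 the intervals overlap. These intervals treat cells as independent although cells share libraries, and the share of named-gene transcripts was not held fixed by the thinning. Its part in this was not tested.

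Other genes of the pathway came from 3 lists. Of all genes tested over all gated cells, 5.25% passed and 2.56% passed as higher, with a median difference of -0.01. Counts this small are not read as a result about a list. Of the other activating receptors that use these adaptors, 10 of 24 listed could be tested over all gated cells, 2 passed, both higher, and the median difference was 0.40. Clec4e, the glycolipid receptor Mincle, rose from 487 to 820.2 CPM (0.75, SE 0.22, adjusted p = 0.0450, limma). Itgam, the CD11b chain of the gate, rose from 162 to 301 CPM (0.86, adjusted p = 0.0316, limma). Clec4d, also in the neutrophil marker list, differed by 0.69 (adjusted p = 0.0810) and Itgb2, the partner chain of CD11b, by 0.17 (adjusted p = 0.771, limma). In neutrophil-like cells 0 of 11 tested passed, and the median was -0.09, against -0.04 over all genes tested. There Clec4e differed by 0.07 and Itgam by 0.19.

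Inhibitory receptors and phosphatases showed a similar count, with 13 of 17 tested, 2 passing, both higher, and a median of 0.38. Lilr4b, an immunoglobulin-like receptor, rose from 961 to 1595 CPM (0.73, adjusted p = 0.0264, limma). Its close paralog Lilrb4a has no transcripts in these tables, so how the counting split the pair is uncertain. The motif search did not cover Lilr4b, so its place among inhibitory receptors rests on the list alone. Cd300lf rose from 181 to 345 CPM (0.82, adjusted p = 0.0167, limma). Ptpn6, the phosphatase SHP-1 that acts at ITIMs, differed by 0.10 (adjusted p = 0.806, limma). In neutrophil-like cells 0 of 7 passed, with Lilr4b at 0.07 and Cd300lf at 0.22.

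Kinases and transducers after the ITAM gave 0 calls among 14 tested of 20, with a median of 0.16 over all gated cells. Rac2 differed by 0.42, Fgr, a Src-family kinase, by 0.42 and Lcp2, the scaffold SLP-76, by 0.19, with adjusted p-values of 0.284, 0.245 and 0.655 (limma). In neutrophil-like cells 0 of 8 passed and the median was -0.25, with Lcp2 at -0.71 (adjusted p = 0.206, limma).

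The genes whose library pattern was most like each member's were found by the correlation of log2 CPM over the 22 libraries after the title set mean was removed. The group difference and the neutrophil share enter these values, so they are a description with no p. Fcer1g was most like Fpr2, a formyl peptide receptor (Pearson r 0.90, Spearman rho 0.83), and Pkm (0.90, 0.85). Tyrobp was most like Pstpip1 (0.88, 0.77) and Stat3 (0.86, 0.81), and Trem1 was most like Stat3 too (0.88, 0.85), followed by Apobr (0.84, 0.78). Fcgr3 was most like Atp6v1b2 (0.87, 0.71) and Cd14 (0.84, 0.77), Fcgr4 like Cotl1 (0.78, 0.59) and Sla (0.77, 0.55), and Tarm1 like Slfn4 (0.72, 0.70) and Hcar2 (0.72, 0.58). For Fcgr2b, Slc38a1 was among the genes most alike (0.70, 0.65). Among the members, Tyrobp and Trem1 were the pair most alike (0.81, 0.80), and Fcgr2b had r of -0.18 with Trem1 and 0.05 with Fcer1g.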

How the data were processed

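The deposited tables hold estimated transcript counts per gene and barcode, made by the authors from reads demultiplexed with bcl2fastq 2.17.1.14 and mapped with BWA 0.6.2-r126, per the submitters' processing notes. All 1419098 values above 0 fit a correction for colliding identifiers (4096 possible) within 1e-06. No genome build is named in the sources used here. Values were rounded and summed per library, and genes were kept at 10 transcripts at the median library size in as many libraries as the least replicated arm. Sums were fitted with limma 3.58.1 (R 4.3.3), chosen over count models because the column check did not read the tables as counts. Clusters used Leiden on Pearson residuals (resolution 1). That resolution, the depth term of the residuals and the class margin were chosen after clusters, but not group tests, were seen. The low-count filter was changed from the number of libraries in the smaller group after group results were seen. Code was tested on simulated sums. No 2 libraries were identical (0 of 231 pairs). Barcodes are named by plate position, so shared barcodes say nothing here. The 7 members and all lists were chosen with earlier results of these data known. Named genes were the members, listed genes that passed or were among the 3 most abundant of a list, and the 2 genes most like each member. 1 of these genes is not reported here. Alternatives covered cell and gene filters, scaling, thinning, title sets, pairing and each library left out.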

Additional observations from a re-analysis of the deposited data

Results flagged for a closer look

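In 4 of 18 sets of control values checked, 1 library's gap to its nearest neighbour was large against the range of its group (above Dixon's 95% critical value for its size). The aGVHD sets, with 12 libraries each, were larger than the sizes covered and were not checked. Chance alone also gives such gaps, on average in 5% of sets. Control replicate 9, with 12 cells, had the highest control level of Fcgr2b, 275 CPM against 131 for the next, and of Fcgr3, 450.4 against 209.7 CPM. Without it Fcgr3 differed by 0.85 (adjusted p = 0.0308, limma) and Fcgr2b by 0.02. Control replicate 3 had the highest control level of Tarm1, 98.0 CPM against 46.2 for the next, and without it Tarm1 differed by 2.49 (adjusted p = 0.00839, limma). In neutrophil-like cells, control replicate 1 had 1.79 Fcer1g transcripts per Tyrobp transcript, and the next control library had 1.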

How the results depend on the processing

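Over all gated cells, 125 genes passed. The count was 7282 with no low-count filter (22839 genes tested, median difference -0.75), 0 with totals unscaled, 2 after thinning, 4 without the 96 cells, 7 in the dated and 6 in the G1 set, 77 without the title set term and 3 with libraries of at least 20 cells. Among alternatives chosen after seeing the data, it was 0 without the 6 clusters of other classes and 15 without control replicates 5, 9 and 10. With 1 library left out it ran from 41 (without control replicate 1) to 166, and was also under 125 by more than 1.5 times without control replicates 4 (66), 6 (79), 8 (73) and 9 (77) and aGVHD replicates 2 (78), 3 (80), 4 (54), 6 (76) and 8 (75). Title numbers did not pair the libraries (correlations -0.12 to 0.26, best match to the own number for 2 of 6): with a replicate block over 6 numbers 21 genes passed, against 7 for the same libraries unpaired. All 4 member calls ended in both fits, with the block at adjusted p-values of 0.0723 (Fcer1g), 0.137 (Tyrobp), 0.133 (Fcgr3) and 0.0564 (Tarm1). The Fcgr2b difference turned positive with no filter (0.22), unscaled (0.043), with named genes only (0.00027), in the G1 set (0.16), with at least 20 cells (0.027), without other classes (0.18) and without control replicates 5, 9 and 10 (0.035), and ran from -0.13 to 0.073 with 1 library left out. Without a filter Fcgr4 (1.09) and Trem1 (1.06) passed. Tyrobp and Fcgr3 lost their calls with limma-trend (adjusted p = 0.0504 and 0.0682). In neutrophil-like cells, where 2 genes passed, the count was 4 with cluster 7 added, 0 after thinning, in the G1 set, with members among the clustering genes and with the replicate block over 4 numbers or its libraries unpaired, 1 under 8 other settings (cells of at least 250 transcripts, totals unscaled, without high-total cells, dated set, limma-trend, the earlier filter, at least 20 cells and without the granule cluster), and 1 to 3 with 1 library left out. No member passed there in any setting. Depth limits Tarm1, which had 54 transcripts over all 10 control libraries.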
